A study of Homo sapiens with 24 samples.

Results

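GPAT3 and 9 further genes of glycerolipid synthesis were followed in T-47D cells, on 24 arrays (Affymetrix Human Gene 1.0 ST). T-47D is an estrogen receptor-positive luminal breast cancer cell line. The genes were GPAT3, GPAM, AGPAT2, AGPAT3, AGPAT4, AGPAT5, LPIN1, LPIN2, DGAT1 and DGAT2. A member was a probe set that the platform annotation pairs with exactly 1 of these symbols, and 9 of the 10 genes, with 10 probe sets of 28536, were found. DGAT1 had a pair of probe sets with identical values, counted once, so 9 probe sets entered each count below. AGPAT3 had no such probe set and was not analysed here. GPAT3 was chosen by its measured rise with HRG in earlier results of these data. Its HRG effects and its values in parental cells are therefore a description with no test.

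Each of 8 groups held 3 biological replicates. Cells transfected with P-Rex1 RNAi duplex #1, with P-Rex1 RNAi duplex #2 or with a non-target duplex (NTC), and parental cells that were not transfected, were given HRG at 20 ng/ml or its vehicle, PBS, for 6 h after serum starvation. HRG, or heregulin, is a growth factor that binds ErbB3 and ErbB4, and P-Rex1 is an exchange factor that activates the GTPase Rac downstream of these receptors. The duplexes were transfected transiently, starvation began 16 h later and lasted 48 h, and no starvation time was found for the parental cells. The comparisons ask how HRG changed each gene and whether lowering P-Rex1 altered that change.

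Triacylglycerol and most membrane phospholipids are built on glycerol-3-phosphate. A glycerol-3-phosphate acyltransferase adds the first fatty acid to make lysophosphatidic acid, an AGPAT enzyme adds the next to make phosphatidic acid, a lipin removes the phosphate to give diacylglycerol, and a DGAT enzyme adds the last fatty acid. Phosphatidic acid and diacylglycerol are also branch points towards phospholipids and act as signalling lipids.

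All values are log2 expression after Robust Multichip Average (RMA), in which 1 unit is a doubling. Array medians lay between 6.04 and 6.18, and no member fell below the 25% quantile of its array on any of the 24 arrays. The arrays were fitted together in limma with 1 mean for each group. Benjamini-Hochberg adjustment covered the 21042 probe sets with at least 1 symbol. A call needed an adjusted p below 0.05 together with a change of more than 1.5-fold, and for differences between HRG effects the adjusted p alone. PREX1, the silenced gene, averaged 8.99 ± 0.09 with #1 and 9.0 ± 0.03 with #2, against 10.42 ± 0.09 in NTC cells, all without HRG, and 8.53 ± 0.08 with #1 and 8.73 ± 0.14 with #2, against 9.45 ± 0.13 in NTC cells, all with HRG (SD, n = 3 each). The luminal markers KRT8, KRT18, KRT19, GATA3 and FOXA1 had means between 11.09 and 12.67. FABP4 of adipocytes, DCN of fibroblasts, PTPRC of leukocytes and PECAM1 of endothelial cells were under the 25% quantile on all 24 arrays. Each is 1 of the markers measured for its type, which numbered 5 for adipocytes, 4 for fibroblasts, 3 for leukocytes and 4 for endothelial cells. Levels of the others are not given here, so absence of these cell types is not shown. ESR1 and ERBB3, also luminal markers, were called lower with HRG in #1, NTC and parental cells. ESR1 was also called in the comparisons with #2 in which GPAT3 was called: in HRG-treated cells it was higher with #2 than in NTC cells by 0.75 (adjusted p = 1.8e-06), with means of 9.19 and 8.43, and its HRG effect differed between #2 and NTC cells by 0.73 (adjusted p = 0.000942). No marker of the other cell types was called for HRG, although the HRG effect on ADIPOQ, an adipocyte marker, differed between #1 and NTC cells by 0.43 (adjusted p = 0.0455). The part of these markers in the results below was not tested.

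HRG raised LPIN1 in every cell population, and GPAT3, chosen for such a rise, was higher with HRG in each. The GPAT3 rise was smaller with P-Rex1 RNAi #2 than in NTC cells. GPAT3 rose 3.58-fold with P-Rex1 RNAi #1, 2.39-fold with #2 and 6.35-fold in NTC cells. LPIN1 rose 1.73-fold with #1, 1.60-fold with #2, 2.19-fold in NTC cells and 1.93-fold in parental cells. LPIN1, 1 of the 8 members other than GPAT3, was called higher with #1, against 2.52% of all probe sets tested. It was also the 1 of 8 called higher with #2, against 1.07%, and in NTC cells, against 2.64%. In parental cells LPIN1 and AGPAT5, 2 of these 8, were called higher, against 2.86%. GPAT3 is left out of these counts because it was chosen for its response to HRG, but it is part of the medians below. No member was called lower, where 1.15% of probe sets were called lower with #1, 0.656% with #2, 3.37% in NTC cells and 2.41% in parental cells. The median HRG effect over the 9 members was 0.23 with #1, beside -0.03 over all probe sets, and 0.09 with #2, beside -0.01. It was 0.19 in NTC cells, beside 0.03, and 0.14 in parental cells, beside -0.03.

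**Figure D1:**
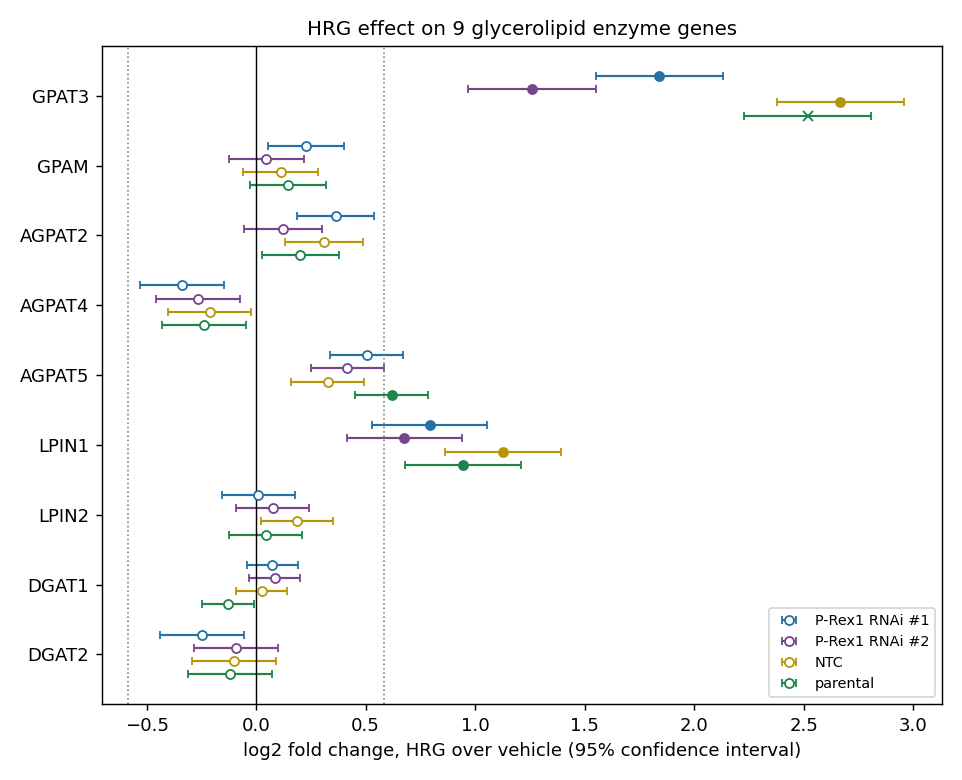
Log2 fold change of HRG over vehicle (x axis) for the 9 member genes in 4 cell populations, with bars for 95% confidence intervals from limma (n = 3 arrays per group) and dotted lines at the 1.5-fold threshold. Filled points met the call rule, open points did not, and the cross marks GPAT3 in parental cells. GPAT3 was chosen for its HRG rise, so all its points are a description with no test. GPAT3 lies to the right of every other gene, from 1.26 with #2 to 2.67 in NTC cells, and LPIN1 follows, from 0.68 to 1.13.

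GPAT3 encodes a glycerol-3-phosphate acyltransferase of the endoplasmic reticulum. In cells with P-Rex1 RNAi #1 its level was 7.08, 7.39 and 7.53 on the 3 HRG arrays, against 5.39, 5.44 and 5.64 on the vehicle arrays. With P-Rex1 RNAi #2 the level was 6.50, 6.81 and 6.65 with HRG, against 5.47, 5.34 and 5.37 with vehicle. Every HRG array lay above every vehicle array in both silenced populations, and the HRG arrays of #2 all lay below those of #1.

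In NTC cells GPAT3 was at 7.95, 8.05 and 8.44 with HRG, against 5.40, 5.59 and 5.45 with vehicle. In parental cells it was at 7.63, 7.82 and 8.28 with HRG, against 5.33, 5.37 and 5.48 with vehicle. HRG and vehicle did not overlap in either population. The log2 HRG effect was 1.84 with #1, 1.26 with #2 and 2.67 in NTC cells, each with a standard error of 0.14. In parental cells the effect was 2.52, a 5.72-fold difference. These effects are a description with no test, since GPAT3 was chosen for its rise. Ranked by HRG effect among the 21042 probe sets, GPAT3 was number 10 with #1, 16 with #2, 5 in NTC cells and 5 in parental cells.

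With HRG, the group means of GPAT3 ran from 6.65 ± 0.16 with #2 through 7.33 ± 0.23 with #1 and 7.91 ± 0.33 in parental cells to 8.15 ± 0.26 in NTC cells (SD, n = 3 each). NTC and parental arrays overlapped in this order, with a log2 difference of 0.24 that was not tested, and the other neighbours did not overlap. Without HRG the 4 group means lay between 5.39 and 5.49 and their arrays overlapped, at levels below the array medians.

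**Figure D2:**
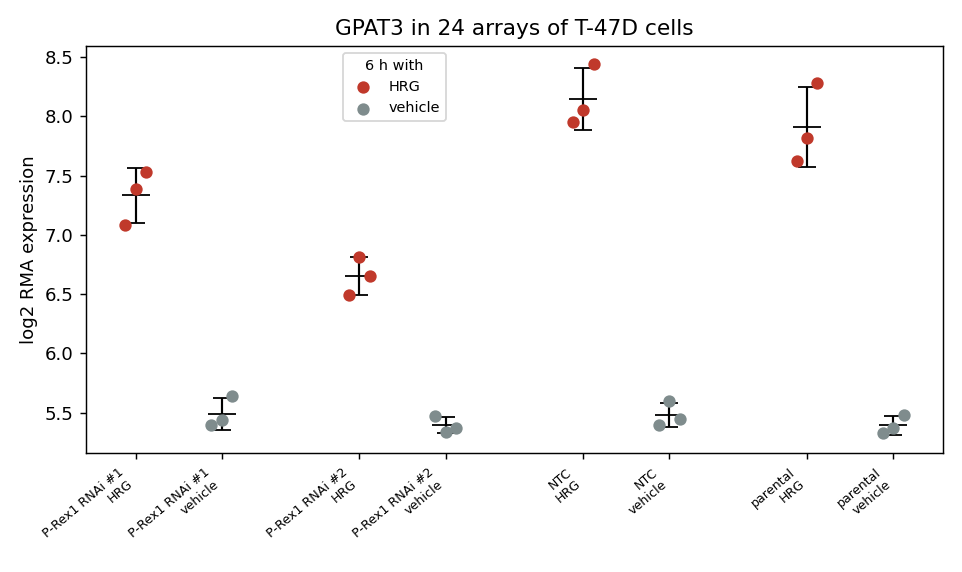
Log2 RMA expression of GPAT3 (y axis) on each of the 24 arrays, with HRG (red) left of vehicle (grey) in each cell population. Points are arrays, and the black marks give the mean ± SD (n = 3). Vehicle arrays lie between 5.33 and 5.64 in all populations, and HRG arrays run from 6.50 with #2 to 8.44 in NTC cells.

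In HRG-treated cells GPAT3 was lower with either P-Rex1 RNAi duplex than in NTC cells, while without HRG no difference passed the test. With HRG, GPAT3 fell by 0.81 with #1 relative to NTC cells (95% interval -1.11 to -0.52, adjusted p = 0.00262, limma) and fell by 1.49 with #2 (95% interval -1.78 to -1.20, adjusted p = 2.21e-07). Without HRG the difference was 0.01 with #1 (95% interval -0.28 to 0.30, adjusted p = 0.982) and -0.08 with #2 (95% interval -0.38 to 0.21, adjusted p = 0.879). GPAT3 lay below the array medians without HRG, which limits how far a fall could show. GPAT3, chosen for its HRG rise, met the call rule with both duplexes, and its adjusted p values do not account for that choice. Of the other 8 members, none was called lower with #1 in HRG-treated cells, against 0.114% of probe sets. With #2 LPIN1, 1 of these 8, was called lower, against 0.936%. No member was called in either direction without HRG, against 0.0428% of probe sets with #1 and 0.209% with #2.

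Tested directly, the HRG effect on GPAT3 with #2 was smaller than in NTC cells by 1.41 on the log2 scale (difference -1.41, standard error 0.20, 95% interval -1.82 to -0.997, adjusted p = 0.000219, limma). GPAT3 was chosen for its HRG rise, and the adjusted p values for it in this paragraph do not account for that choice. With #1 the difference was -0.83 (95% interval -1.24 to -0.41, adjusted p = 0.055) and missed the threshold. It passed under 5 of 8 other settings, 1 of which uses the parental values that chose GPAT3. None of the 8 members other than GPAT3 was called with #2, where 2.51% of probe sets were called. No member was called with #1, where 0.642% were. The difference between the HRG effects with #2 and with #1 was -0.58 (95% interval -0.99 to -0.17, adjusted p = 0.482), and no member was called in that comparison, where 0.0665% of probe sets were. The HRG effect on GPAT3 in NTC cells minus that in parental cells was 0.15, a description with no test. No other member, and none of the 21042 probe sets tested, was called for this difference. The same held, at the 1.5-fold threshold, for the level of NTC against parental cells with or without HRG (0% each).

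Expressed as a share, the HRG effect on GPAT3 with #1 was 69.0% of that in NTC cells, and with #2 it was 47.2%. The 601 probe sets called higher with HRG in parental cells had a median share of 89.5% with #1 and 59.4% with #2. Of these 601, 117 had a smaller share than GPAT3 with #1 and 189 with #2. For LPIN1 the shares were 70.2% with #1, with 126 of 601 smaller, and 60.0% with #2, with 303 of 601 smaller. These shares all have the same NTC arrays in the denominator and are a description with no test.

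**Figure D3:**
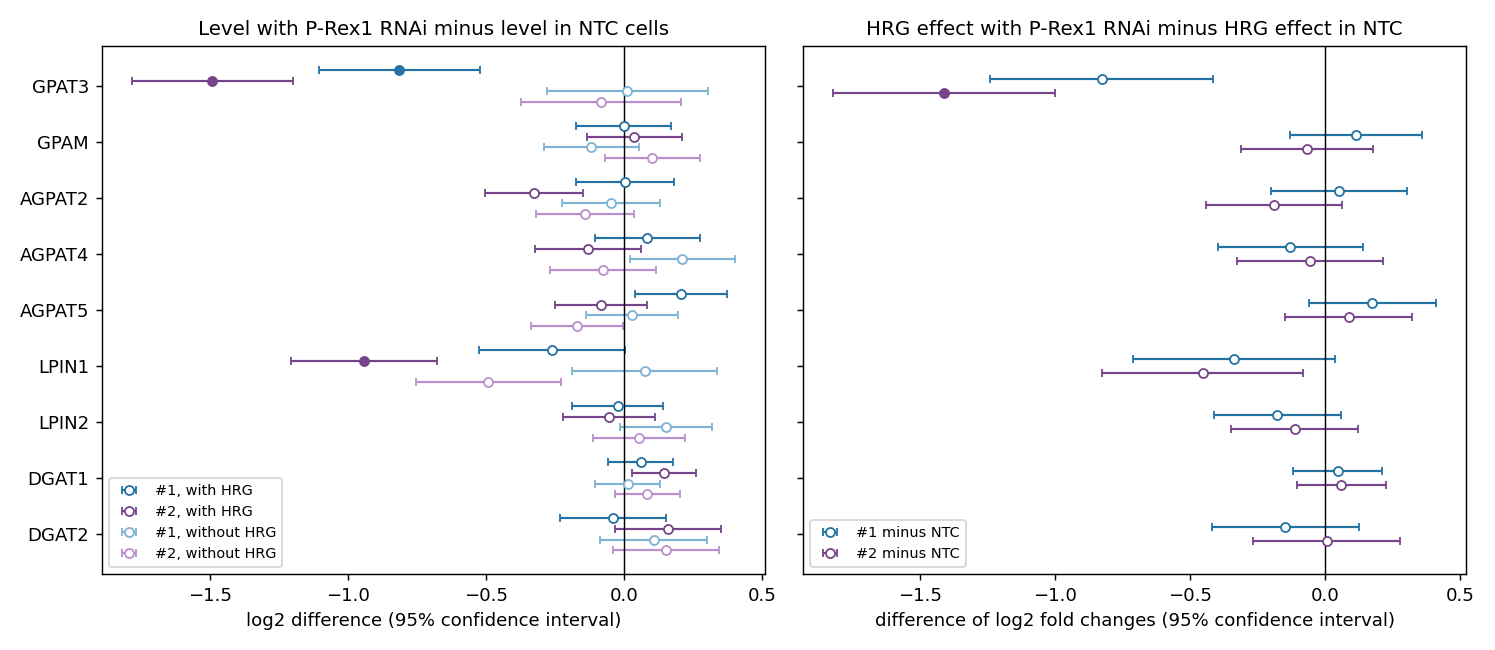
Left, log2 level with P-Rex1 RNAi minus that in NTC cells for the 9 members, with and without HRG. Right, the HRG effect with P-Rex1 RNAi minus the HRG effect in NTC cells, with bars for 95% confidence intervals (limma, n = 3 arrays per group) and filled points for calls. GPAT3 departs from 0 with HRG (-0.81 with #1, -1.49 with #2) and stays near 0 without it (0.01 and -0.08), whereas LPIN1 with #2 lies below 0 in both states. Levels of GPAT3 without HRG were below the array medians, which limits how far a fall could show.

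LPIN1 encodes lipin 1, a phosphatidic acid phosphatase that also acts in the nucleus as a transcriptional coactivator. With P-Rex1 RNAi #1 it was at 9.25, 9.45 and 9.65 with HRG, against 8.56, 8.72 and 8.69 with vehicle. With #2 it was at 8.63, 8.70 and 8.98 with HRG, against 8.13, 7.99 and 8.16 with vehicle. Every HRG array lay above every vehicle array within each population, and the HRG arrays of #2 lay below those of #1.

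In NTC cells LPIN1 was at 9.56, 9.68 and 9.90 with HRG, against 8.50, 8.68 and 8.57 with vehicle. In parental cells it was at 9.33, 9.42 and 9.91 with HRG, against 8.50, 8.71 and 8.62 with vehicle. HRG and vehicle arrays were separate in both. The log2 HRG effect was 0.79 with #1 (adjusted p = 5.84e-05, limma), 0.68 with #2 (adjusted p = 0.000606), 1.13 in NTC cells (adjusted p = 3.6e-07) and 0.95 in parental cells (adjusted p = 4.3e-06), each with a standard error of 0.13. The effect with #2 lost its call when HRG replicate 3 of that population was left out (0.57, below the 1.5-fold threshold, adjusted p = 0.00683).

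For LPIN1, unlike GPAT3, a difference without HRG passed the adjusted p with #2, though not with #1. LPIN1 and GPAT3 were not tested against each other. Without HRG, GPAT3 lay below the array medians and LPIN1 above them, and the part of this in the contrast was not tested. With #2 LPIN1 was lower than in NTC cells without HRG by a log2 value of -0.49 (95% interval -0.76 to -0.23, adjusted p = 0.0432, limma), under the 1.5-fold threshold. At this adjusted p alone 1.75% of probe sets were lower. In HRG-treated cells it fell by 0.94 with #2 (95% interval -1.21 to -0.68, adjusted p = 2.57e-05). With #1 the differences were 0.07 without HRG (adjusted p = 0.837) and -0.26 with HRG (95% interval -0.52 to 0.0027, adjusted p = 0.247). The HRG effect on LPIN1 was not shown to differ from that in NTC cells, with a difference of -0.34 for #1 (95% interval -0.71 to 0.04, adjusted p = 0.277) and -0.45 for #2 (95% interval -0.82 to -0.08, adjusted p = 0.208).

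**Figure D4:**
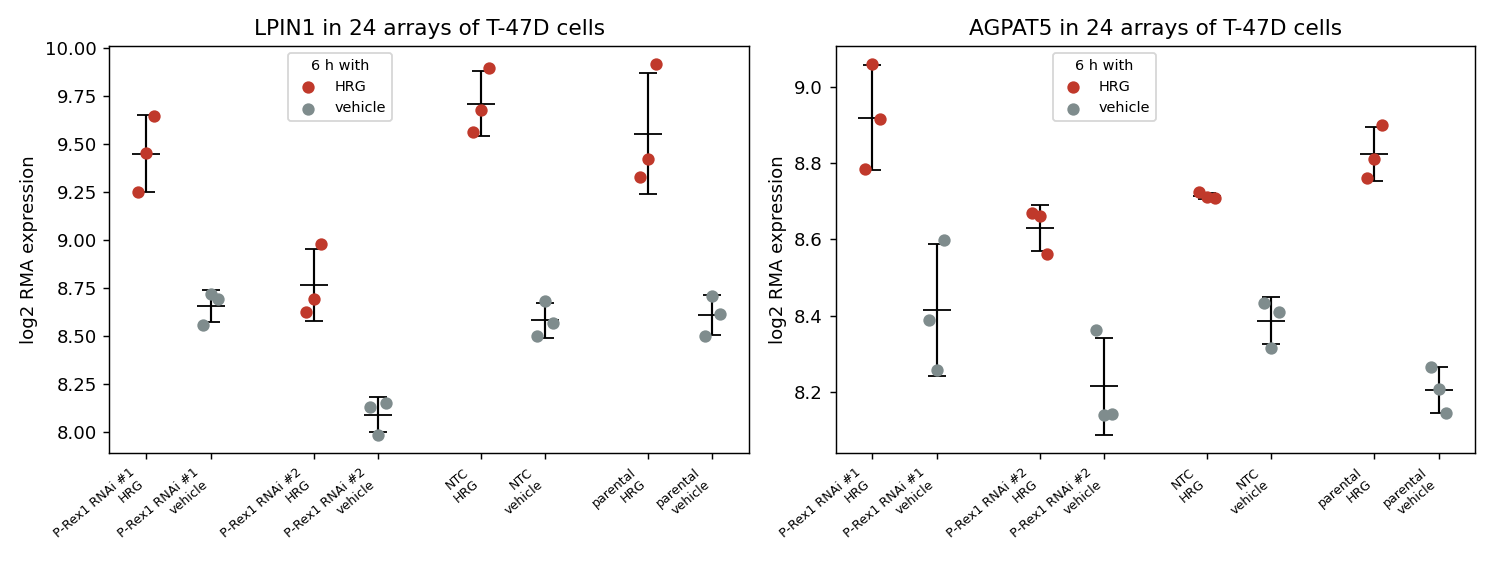
Log2 RMA expression of LPIN1 (left) and AGPAT5 (right) on each of the 24 arrays, with HRG (red) left of vehicle (grey) in each cell population. Points are arrays, black marks the mean ± SD (n = 3), and the y axes do not start at 0 and differ in scale. HRG arrays lie above vehicle arrays within every population for both genes, and both states of LPIN1 are lowest with #2.

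AGPAT5, a lysophosphatidic acid acyltransferase, was the other member called in parental cells. There it was at 8.76, 8.81 and 8.90 with HRG, against 8.26, 8.21 and 8.14 with vehicle, a log2 effect of 0.62 (standard error 0.08, adjusted p = 2.79e-06, limma). This lies just above the 1.5-fold threshold of 0.58 and fell under it without parental HRG replicate 3. With #1 it was at 8.78, 9.06 and 8.92 with HRG, against 8.39, 8.26 and 8.60 with vehicle. With #2 it was at 8.67, 8.66 and 8.56 with HRG, against 8.36, 8.14 and 8.14 with vehicle. In NTC cells it was at 8.72, 8.71 and 8.71 with HRG, against 8.43, 8.32 and 8.41 with vehicle. HRG and vehicle arrays were again separate, with effects of 0.50 for #1 (adjusted p = 5.36e-05), 0.42 for #2 (adjusted p = 0.00078) and 0.33 for NTC cells (adjusted p = 0.00272), all under the 1.5-fold threshold. The effects in NTC and parental cells differed by -0.29 (95% interval -0.53 to -0.05, adjusted p = 0.603).

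The other members moved less. GPAM, the mitochondrial glycerol-3-phosphate acyltransferase, ranged from 6.68 to 7.31 over the 24 arrays, and its HRG effect was 0.23 with #1 (adjusted p = 0.0446), 0.05 with #2, 0.11 in NTC cells and 0.14 in parental cells. AGPAT2, the AGPAT enzyme whose loss causes a congenital lipodystrophy, ranged from 7.73 to 8.48. Its HRG effect was 0.36 with #1 (adjusted p = 0.00265), 0.12 with #2 (adjusted p = 0.413), 0.31 in NTC cells (adjusted p = 0.00679) and 0.20 in parental cells (adjusted p = 0.0796). AGPAT4 ranged from 4.75 to 5.38 and had negative effects in all 4 populations, at -0.34 with #1 (adjusted p = 0.00797), -0.27 with #2, -0.21 in NTC cells and -0.24 in parental cells.

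LPIN2, a further lipin, stayed between 5.01 and 5.42, with HRG effects from 0.01 with #1 to 0.19 in NTC cells. DGAT1 and DGAT2, the enzymes of the last step, ranged from 8.69 to 9.10 and from 5.99 to 6.53. Their HRG effects lay between -0.13 and 0.09 for DGAT1 and between -0.25 and -0.09 for DGAT2, and neither was called in any population. At an adjusted p under 0.05 with no fold threshold and GPAT3 left out, 5 of 8 members passed with #1, where 27.3% of all probe sets did. It was 2 of 8 with #2 (15.8%), 3 of 8 in NTC cells (31.2%) and 2 of 8 in parental cells (30.8%). With GPAT3 still left out, 2 of 8 were lower at this adjusted p with #2 than in NTC cells when both had HRG, against 5.57% of probe sets. They were LPIN1 and AGPAT2 (-0.33, adjusted p = 0.0128, for AGPAT2).

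Across the 24 arrays, the levels of LPIN1 and AGPAT5 followed GPAT3 most closely among the members, with Pearson correlations of 0.93 and 0.86. These points share the HRG treatment. After the mean of each group was removed the correlations were 0.82 for LPIN1 and 0.38 for AGPAT5. Removing group means leaves any effect shared by same-numbered replicates, and its part in these values was not tested. By the same measure PREX1 was at -0.68, and the 5 genes named next ranged from 0.46 (CORO1C) to 0.78 (MYO1E). Over all single-symbol probe sets, the 5 most like GPAT3 over the 24 arrays were MYO1E (0.992), ACOT9 (0.988), LOC151760 (0.988), CORO1C (0.988) and ELOVL7 (0.988), and the 2 most opposite were DLG2 (-0.989) and NCAPH (-0.987). MYO1E is a class I myosin, ACOT9 a mitochondrial acyl-CoA thioesterase, CORO1C a coronin that binds actin and ELOVL7 an elongase of long fatty acids.

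The RefSeq window around the GPAT3 start, from 250 bases before to 50 after it, is shown because GPAT3 carries the strongest response here. It lies at chr4:83535857-83536156 on the plus strand of GRCh38.p14, and capitals mark both matches to the CRE half-site TGACG, searched on both strands.
GPAT3: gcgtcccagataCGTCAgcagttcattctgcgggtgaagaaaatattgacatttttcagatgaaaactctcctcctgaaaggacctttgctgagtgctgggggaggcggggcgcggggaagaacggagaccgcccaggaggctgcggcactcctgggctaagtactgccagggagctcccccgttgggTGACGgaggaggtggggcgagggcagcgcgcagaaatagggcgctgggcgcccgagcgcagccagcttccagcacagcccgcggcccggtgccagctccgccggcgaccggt
Of 35116 RefSeq windows of this length, 24.6% hold TGACG. The AP-1 site TGANTCA (7.71% of windows), the E-box CACGTG (7.26%) and the ETS site CCGGAAG (10.3%) were not found in this window, and none of the 4 motifs was found in the 3 LPIN1 windows. GPAM, not called for HRG, also held 2 matches to TGACG. AGPAT4 held 1 match to TGACG and 1 AP-1 site, and 1 LPIN2 window held 1 match to TGACG and 1 E-box. AGPAT2 and AGPAT3 held no match. AGPAT5 and DGAT1 were left out of this search, and no window of DGAT2 is given here. The motifs were chosen after the values and the sequence had been seen, and a match describes letters, not binding.

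Over 7 lists of other genes of glycerolipid metabolism, 70 genes were measured. With HRG, 4 of 70 were called in either direction with #1, where 3.67% of all probe sets were, 2 of 70 with #2 (1.73%), 7 of 70 in NTC cells (6.01%) and 6 of 70 in parental cells (5.27%). Of 11 other measured enzymes of the same pathway, 1 was called in NTC cells, against 6.01% of all probe sets, and with #2, against 1.73%. This was GPD1L, a relative of glycerol-3-phosphate dehydrogenase, whose log2 effect was -0.65 with #2 (adjusted p = 3.99e-05, limma) and -0.70 in NTC cells (adjusted p = 3.92e-06), beside -0.37 with #1 and -0.56 in parental cells. The median effect of these 11 was 0.11 in NTC cells. None of 18 genes of the phospholipid branch and none of 11 lipid droplet protein genes was called in any of the 4 populations, where 1.73% to 6.01% of all probe sets were, and their medians in NTC cells were -0.03 and 0.09.

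Among 4 measured acyl-CoA synthetases, which activate fatty acids for acylation, ACSL1 was called lower in NTC and parental cells and ACSL4 higher with #1, 1 of 4 in each, against 6.01%, 5.27% and 3.67% of all probe sets. ACSL1 fell by 0.85 in NTC cells (adjusted p = 7.34e-11, limma) and by 0.83 in parental cells (adjusted p = 1.17e-10), and its effects of -0.56 with #1 and -0.49 with #2 were under the 1.5-fold threshold. The ACSL1 effect with #2 differed from that in NTC cells by 0.36 (adjusted p = 0.0103), and with #1 by 0.29 (adjusted p = 0.0738). ACSL4 was called with #1 alone, at 0.64 (adjusted p = 0.000799), and the difference from its effect in NTC cells was 0.34 (adjusted p = 0.283). The median of the 4 was 0.09 in NTC cells.

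Of 8 lysophospholipid acyltransferases, which remodel the fatty acids of phospholipids, 2 were called with #1, none with #2, 2 in NTC cells and 3 in parental cells, against 3.67%, 1.73%, 6.01% and 5.27% of all probe sets. They were LPCAT1, LPGAT1 and MBOAT1. LPCAT1, a lysophosphatidylcholine acyltransferase, rose by a log2 value of 0.72 with #1 (adjusted p = 3.46e-07, limma), 1.28 in NTC cells (adjusted p = 3.6e-11) and 1.16 in parental cells (adjusted p = 1.57e-10), and its effect with #2 was 0.35, under the threshold. Its HRG effect was smaller than in NTC cells with both duplexes, with differences of -0.56 with #1 (adjusted p = 0.0251) and -0.93 with #2 (adjusted p = 5.58e-05). LPGAT1 rose by 0.60 with #1 and 0.76 in parental cells. MBOAT1 fell by 0.84 in NTC cells and by 0.73 in parental cells, and its effect with #2 differed from that in NTC cells by 0.38 (adjusted p = 0.0246). The median of the 8 was 0.01 in NTC cells.

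Of 9 lipolysis genes, MGLL, the monoacylglycerol lipase, was called in NTC cells, where 6.01% of all probe sets were, at 0.66 (adjusted p = 6.21e-08, limma) and in parental cells (5.27%) at 0.63 (adjusted p = 1.17e-07), with 0.42 for #1 and 0.45 for #2 under the threshold. Of 9 transcription regulators of lipid genes, 2 were called in NTC cells (6.01%) and 1 in each other population (3.67% with #1, 1.73% with #2, 5.27% in parental cells). PPARGC1A, a coactivator of mitochondrial and lipid oxidation genes, fell by 0.72 with #1 (adjusted p = 8.38e-07), 0.86 with #2 (adjusted p = 2.21e-07), 1.03 in NTC cells (adjusted p = 2.39e-09) and 0.96 in parental cells (adjusted p = 8.09e-09). PPARA, a nuclear receptor of fatty acid oxidation, fell by 0.59 in NTC cells. Medians in NTC cells were 0.13 for lipolysis and -0.06 for the regulators. Among the lipid droplet proteins, the HRG effect differed from that in NTC cells by 0.44 with #1 for HILPDA (adjusted p = 0.0287) and by 0.28 with #2 for FITM2 (adjusted p = 0.0369).

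**Figure D5:**
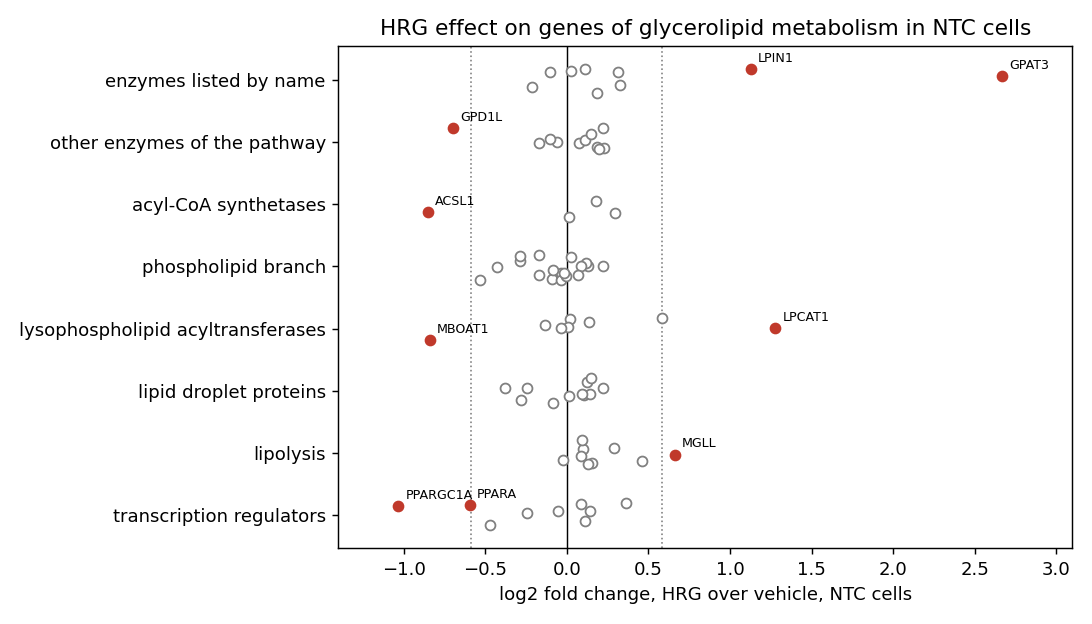
Log2 fold change of HRG over vehicle in NTC cells (x axis) for the genes of 8 lists of glycerolipid metabolism (rows), with the 9 members on top. Points are genes, spread vertically at random for legibility, filled and named where the call rule was met, and dotted lines mark the 1.5-fold threshold. GPAT3 was chosen for its HRG rise, so its point is a description with no test. GPAT3 (2.67), LPCAT1 (1.28), LPIN1 (1.13) and MGLL (0.66) lie on the right, and PPARGC1A (-1.03), ACSL1 (-0.85), MBOAT1 (-0.84), GPD1L (-0.70) and PPARA (-0.59) on the left.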

How the data were processed

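RNA from 24 T-47D cultures was hybridised to Affymetrix Human Gene 1.0 ST arrays. The deposited values are log2 expression, made by the authors with RMA (version not given in the sources used here), for 28536 probe sets. RMA adjusts the background and brings all arrays to 1 distribution, which compresses fold changes of dim probe sets. Columns were matched to samples by name, and columns not used numbered 0. The annotation names 1 gene for 19292 probe sets, several for 1750 and none for 7494. It states no build, so no probe set coordinates are printed.

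Tests ran in limma 3.58.1 (R 4.3.3), on the 21042 annotated probe sets, with 1 mean per group over 24 arrays and Benjamini-Hochberg adjustment. Silencing was compared with NTC cells. The Rank Products test named in the study's methods was not run, since its null resamples over probe sets. The members, gene lists, tests and the 4 arrays left out together were chosen with earlier results of these data known. Named genes are all members, list genes called for HRG or its interaction, and the probe sets most and least correlated with GPAT3. Replicates are biological per the labels. Arrays carry no counts, so their number (3 per group) limits the precision. On simulated arrays with 100 probe sets changed 2-fold and 100 changed 3-fold among 21042, the comparison of HRG effects between #2 and NTC cells recovered 98 and 99, with 17 false calls. Noise was drawn independently for each array, and all other probe sets had the same mean in every group. A shared replicate effect and a wide response to HRG were not simulated, so these figures do not cover them. Alternatives comprised a replicate block, other probe set filters, variance models, centring, thresholds and controls, and each array left out. Same-numbered samples deviated together (correlation over 0.1) in 47 of 60 pairs. Pairing was to be assumed only if every pair did, so the block stayed an alternative. Promoter windows are RefSeq's (GRCh38.p14), and plots used matplotlib 3.10.9.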

Additional observations from a re-analysis of the deposited data

Results flagged for a closer look

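The HRG effect on GPAT3 differed between cells with P-Rex1 RNAi #2 and NTC cells by -1.41 on the log2 scale (adjusted p = 0.000219, limma, n = 3 arrays per group), with effects of 1.26 with #2 and 2.67 in NTC cells. All 3 HRG arrays of #2 lay below all 3 HRG arrays of NTC cells, and the vehicle arrays overlapped. GPAT3 was chosen for its HRG rise, which this adjusted p does not account for. Groups of 3 arrays are too small for a test of single arrays that lie apart.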

How the results depend on the processing

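The interaction of HRG with P-Rex1 RNAi #1 on GPAT3 depended on the settings. It passed with the replicate number as a block (-0.83, adjusted p = 0.0103), without the dimmest 25% of probe sets (-0.83, 0.0442), with trend and robust variance (-0.83, 0.0445), with centred arrays (-0.70, 0.0407) and against the mean of parental and NTC cells (-0.75, 0.0336), which includes the parental values that chose GPAT3; each gave 1 member called. It did not pass over all probe sets (0.0688), with the groups compared alone (0.0782) or without 4 arrays that stood apart (-0.71, 0.259). Leaving out single arrays gave -0.93 to -0.68 (adjusted p 0.0372 to 0.15, 0 to 1 members), and it passed without NTC HRG replicate 2 (0.0487), #1 vehicle replicate 1 (0.0372) or #1 HRG replicate 3 (0.0497). Centring moved that comparison by 0.12 over all probe sets. With #2 the same leave-one-out range was -1.51 to -1.26.

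Counted with GPAT3, members called for HRG with #2 numbered 1 without the 4 arrays (LPIN1 0.57) and 1 to 2 with single arrays left out. Under the main settings 1.73% of all probe sets were called with #2, and shares for the reduced sets of arrays are not given here. With GPAT3 counted and no fold threshold, 4 members passed for HRG in NTC cells, against 31.2% of all probe sets, and 6 with #1, against 27.3%. For #2 against NTC cells without HRG 1 passed, against 2.27%. AGPAT5 in parental cells was at 0.58 without HRG replicate 3. Apart from the interactions and from arrays left out singly, other settings gave 99 single-gene values. Of these, 98 stayed the same and 1 was weaker, LPIN1 above. They include the HRG effects on GPAT3, which are a description with no test. GPAT3 in parental cells was judged by direction and size, without a call. With single arrays left out, AGPAT5 in parental cells and LPIN1 with #2 (0.57) lost their calls. No value reversed. The block changed no other call. Same-numbered samples had a median correlation of deviations of 0.19, which hints at a shared replicate effect from the data, not the design. The median of the others, -0.11, is no separate comparison, because deviations within each group of 3 arrays sum to 0. Dim probe sets and 3 arrays per group limit all values.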
